A study of Mus musculus with 49 samples.

Results

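The comparison of HFD-F with CD-F sets 8 hippocampal libraries from offspring with the maternal code HFD beside 8 from offspring with the maternal code CD, all with the offspring code F. These 16 libraries were taken from the 49 of the series by their group label. Each library comes from a C57BLKS/J mouse aged 3 months, and the design text counts 1 mouse per library. No label writes out what the codes mean. The title of the series speaks of obese mothers and fibre-rich feeding, and on that basis the first code was taken to name what the dam ate and the second what her young ate. On that reading, all 16 mice share the offspring diet, and the question is whether the maternal diet leaves a difference in hippocampal RNA when the offspring eat diet F. The same maternal contrast under offspring code C (8 libraries of CD-C and 9 of HFD-C) was used only to test whether a difference depends on the offspring code.

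The hippocampus encodes spatial and episodic memory through granule cells of the dentate gyrus and pyramidal cells of the CA fields, whose firing is held in check by GABA acting on chloride channels. Microglia, astrocytes, oligodendrocytes and vessel cells make up much of the rest of the tissue. Maternal obesity in rodents is studied for its effects on synapses, microglia and metabolic signalling in the offspring brain, and fibre for its fermentation to short-chain fatty acids in the gut.

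Expression was read as FPKM (fragments counted relative to transcript length and to the size of the library), and 16029 rows whose mean over the 49 libraries reached 0.5 FPKM were tested on the log2(FPKM + 0.5) scale with the XX or XY mark of the titles in the model. The deposited values carry no counts, so that sequencing depth is unknown and no counting error can be given. The columns of the 16 libraries summed to between 1248488 and 1340551 FPKM. The marks held against sex-linked genes: Xist stood at 43.0 to 183 FPKM in the 8 XX libraries and at 0 to 0.242 in the 8 XY libraries, and Ddx3y at 6.05 to 30.2 in XY and at 0 to 0.0224 in XX. Markers of the hippocampal fields were present in every library, with the dentate gene Prox1 at 5.98 to 31.9, the CA1 gene Wfs1 at 30.3 to 149 and the CA2 gene Rgs14 at 44.3 to 152 FPKM.

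Both groups held a library that stood apart. CD-F replicate 8 deviated from the mean of its group by 0.590 on the log2 scale on average, against at most 0.378 for the others, and HFD-F replicate 8 by 0.467 against at most 0.332. The first is an XY library and the second an XX library. Both groups were also more variable than CD-C and HFD-C. The median SD of a row was 0.312 in CD-F and 0.262 in HFD-F, against 0.194 in CD-C and 0.202 in HFD-C. A second limit lies in the titles. The 4 XX libraries of HFD-F all carry the title prefix HFD3.2, while its XY libraries carry HFD2.2 (2) and HFD2.5 (2), so that mark and prefix cannot be told apart in HFD-F. In CD-F the prefix CD2.5X holds 3 XX libraries, CD1.5 holds 2 XY libraries, and CD2.6 holds 1 XX and 2 XY. What a prefix stands for is not given in the labels. The p-values of the main fit rest on a spread between libraries, shared by all 49, and not on one between prefixes. If a prefix marks a dam or a litter, each group holds 3 such units, and SEs over 8 libraries may be too small. With unweighted means per prefix, fitted without the XX or XY mark, 867 rows had an unadjusted p under 0.05. The smallest adjusted p in limma was then 0.751. The fitted correlation within a prefix was 0.0356, a single value over all 49 libraries and not one for these groups alone.

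No gene differed between HFD-F and CD-F past the threshold. In limma, 0 of 16029 rows (0%) had an adjusted p under 0.05, and the smallest adjusted p was 0.482. At an unadjusted p under 0.05 there were 1325 rows, 818 higher in HFD-F (5.1% of the rows tested) and 507 lower (3.16%). These 2 percentages are the background for the counts of list members below, except where a count is given for another setting. The matching shares (higher, then lower) were 3.16% and 2.18% with the trend of each library on GC content removed, 1.92% and 4.32% in XX libraries alone, and 8.33% and 5.17% in XY libraries alone. They were 2.13% and 1.95% with the 16 libraries fitted alone, and 4.32% and 3.08% without the 2 libraries that stood apart. When 1 library was left out they ran from 2.99% to 7.85% and from 1.98% to 5.37%. A title prefix fitted as a random term gave 4.83% and 2.7%. The median difference over all rows was -0.02 on the log2 scale. The median SE was 0.136, the median 95% interval reached 0.273 to either side, and for 14709 rows (91.8%) the whole interval lay between -1 and 1. For these rows a difference of 2-fold or more on the log2(FPKM + 0.5) scale lay outside the interval. The SEs and intervals use 1 spread per row, shared by all 49 libraries. The median SD of a row was 0.312 in CD-F, the highest of the 6 groups, so that these intervals may be too narrow for this comparison. With the 16 libraries fitted alone, 654 rows had an unadjusted p under 0.05, and the smallest adjusted p in limma was 0.967. Without HFD-F replicate 8 there were 2113 rows at an unadjusted p under 0.05, and 2 genes passed: Calcrl, at a difference of 0.82 (adjusted p = 0.024 in limma, between 0.024 and 0.967 over all settings), and the predicted gene LOC105247294, at 1.82.

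Of the genes higher in HFD-F, the 5 with the smallest p were Calcrl, Gabra2, Zfp322a, Ddx10 and Tlr4. All are given as not passing, each with an adjusted p of 0.482 in limma. Calcrl (chromosome 2, 84330626 to 84425405 of GRCm38.p6) encodes the receptor that pairs with accessory proteins to bind calcitonin gene-related peptide and adrenomedullin. Its lowest, median and highest values were 5.38, 10.3 and 18.3 FPKM in CD-F and 10.7, 18.1 and 21.6 in HFD-F. The groups overlapped, with 3 libraries of HFD-F above the highest of CD-F and 4 of CD-F below the lowest of HFD-F. The difference was 0.70 on the log2 scale (SE 0.161, 95% interval 0.38 to 1.02).

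Gabra2 (chromosome 5, 70958392 to 71095849) encodes the alpha-2 subunit of the GABA-A receptor, the chloride channel behind most fast inhibition. It stood at 7.26, 22.8 and 52.8 FPKM (lowest, median, highest) in CD-F and at 32.3, 48.2 and 62.1 in HFD-F, a difference of 1.1 (SE 0.259, interval 0.58 to 1.62). All 8 libraries of HFD-F lay above the mean of CD-F, and 6 of CD-F lay below the lowest of HFD-F. By mark the difference was 0.35 (SE 0.336) in XX and 1.86 (SE 0.336) in XY. Among the XY libraries, CD-F held values of 13.7, 22.4, 23.2 and 7.26 FPKM and HFD-F values of 61.8, 62.1, 61.9 and 41.7, so that those 2 sets did not overlap. The share of all rows that separate in this way was not counted. Since Gabra2 was picked by its p in these same values, the lack of overlap adds no support. With the XY libraries of all groups fitted without the XX libraries, Gabra2 had an adjusted p of 0.0528 in limma, the lowest over its settings, of which the highest was 0.967. Gabra2 is among the genes of the lowest GC content, at 38.8% of its transcript, a property taken up below.

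Tlr4 (chromosome 4, 66827551 to 66846581), the receptor of innate immune cells for bacterial lipopolysaccharide, stood at 24.3, 26.2 and 32.9 FPKM in HFD-F against 9.10, 20.1 and 25.8 in CD-F, and 6 libraries of HFD-F lay above the highest of CD-F. The difference was 0.67 (SE 0.169), with 0.58 in XX and 0.76 in XY. Zfp322a, a zinc finger gene on chromosome 13 (23353103 to 23369208), stood at 11.8, 21.1 and 45.1 FPKM in CD-F and at 27.0, 40.1 and 45.5 in HFD-F (0.68, SE 0.166). Ddx10, a DEAD-box RNA helicase gene on chromosome 9 (53098454 to 53248170), stood at 6.5, 9.61 and 17 in CD-F and at 12.9, 16.2 and 17.2 in HFD-F (0.54, SE 0.136). In Zfp322a and Ddx10 the top of the range was alike in both groups, and 6 libraries of CD-F lay below the lowest of HFD-F.

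Of the genes lower in HFD-F, Vars, Selo, BC023829, Wrap53 and Nrde2 had the smallest p, again with an adjusted p of 0.482 in limma. Vars encodes the enzyme that loads valine onto its transfer RNA. It stood at 268, 290 and 457 FPKM in CD-F and at 106, 201 and 278 in HFD-F, with 7 libraries of HFD-F below the lowest of CD-F (-0.63, SE 0.163). Its symbol is on 4 rows of the table and the value is uncertain for that reason. Selo (chromosome 15, 89089038 to 89100339; RefSeq symbol Selenoo) encodes a selenoprotein of mitochondria. It stood at 68.6, 84.0 and 114 FPKM in CD-F and at 57.6, 70.8 and 81.1 in HFD-F (-0.27, SE 0.069).

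BC023829 stood at 13.8, 14.2 and 17.1 FPKM in CD-F and at 8.61, 12.3 and 14.4 in HFD-F (-0.32, SE 0.087), with 7 libraries of HFD-F below the lowest of CD-F. Wrap53, whose protein guides small RNAs and telomerase to Cajal bodies, stood at 1.42, 1.60 and 2.17 in CD-F and at 1.17, 1.28 and 1.69 in HFD-F (-0.26, SE 0.071), again with 7 libraries of HFD-F below all of CD-F. The ranges of all of these genes overlapped between the groups. Nrde2, a nuclear RNA-processing factor, stood at 11.2, 14.9 and 18.4 in CD-F and at 10.1, 11.9 and 12.7 in HFD-F (-0.34, SE 0.093), and 7 libraries of CD-F lay above the highest of HFD-F.

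The groups with offspring code C were set beside these values for some of the 10 genes, all picked by their p for HFD-F against CD-F. For Gabra2, Ddx10 and Nrde2 their means lay nearer to HFD-F than to CD-F. The libraries of the 4 groups also differed in their trend with GC, given below. The part of that trend in this order was not tested. Mean Gabra2 was 26.2 ± 15.4 FPKM in CD-F (SD, n = 8) and 49.8 ± 11.2 in HFD-F, against 45.6 ± 19.8 in CD-C and 41.8 ± 6.90 in HFD-C. Ddx10 stood at 10.9 ± 3.88 in CD-F, 15.4 ± 1.82 in HFD-F, 15.7 ± 1.83 in CD-C and 15.8 ± 1.49 in HFD-C. For Nrde2 the same means were 15.2, 11.7, 12.5 and 11.9 FPKM. BC023829 was arranged the other way, at 14.8 in CD-F, 11.9 in HFD-F, 15.0 in CD-C and 14.2 in HFD-C.

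**Figure D1:**
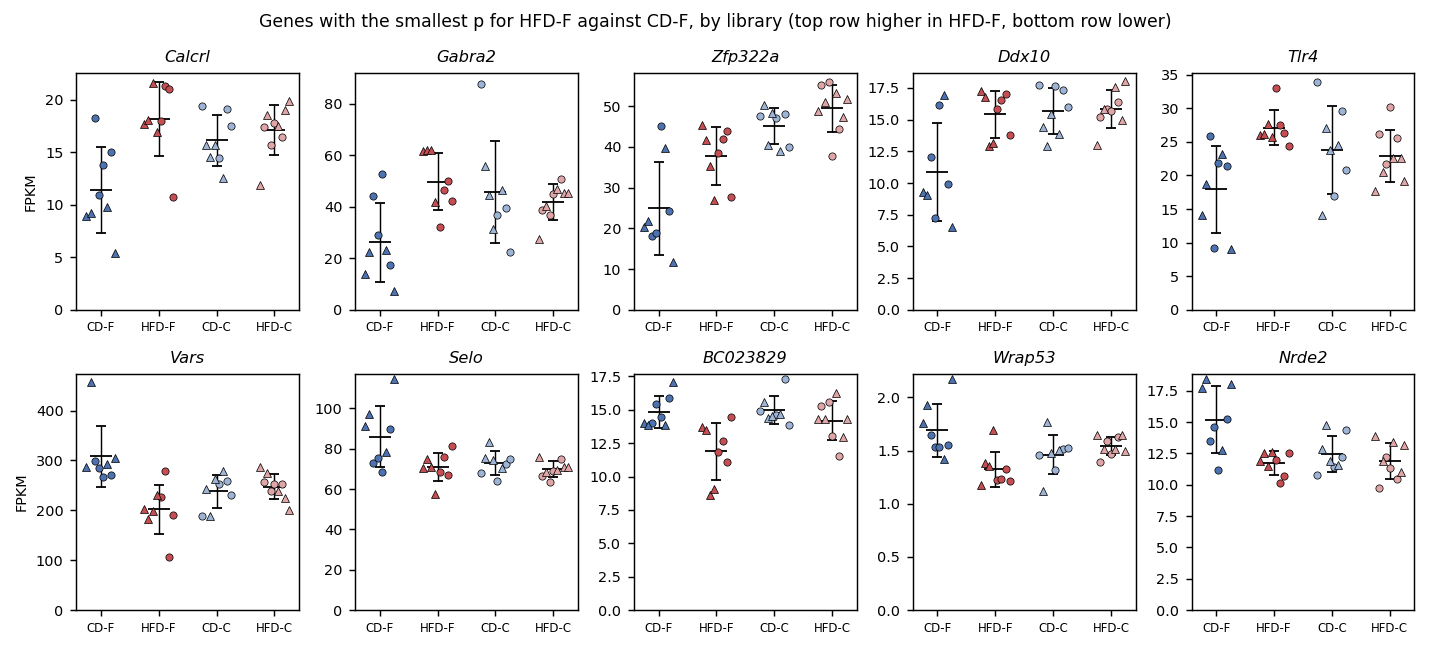
FPKM of the 10 genes with the smallest p in each library of 4 groups; circles are XX and triangles XY libraries, and bars give mean ± SD. In the Gabra2 panel the CD-F mean of 26.2 lies below the means of the 3 other groups, and in every panel the CD-F and HFD-F libraries overlap.

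Promoter sequences are shown for those of the 2 genes with the smallest p in each direction for which RefSeq (GRCm38.p6) gives one that lies outside the gene, so that their base composition and any match to stress or sterol motifs can be read directly. These are Gabra2 among the higher and Selo among the lower. Vars is named only, and the window of Calcrl is not shown because 139 of its bases fall within the gene. Each run holds the 250 bases before the annotated start, 5′ to 3′ on the strand of the gene, with motif matches in capitals. The windows are chr5:71095850-71096099 (minus strand) for Gabra2 and chr15:89088788-89089037 (plus strand) for Selo.
Gabra2: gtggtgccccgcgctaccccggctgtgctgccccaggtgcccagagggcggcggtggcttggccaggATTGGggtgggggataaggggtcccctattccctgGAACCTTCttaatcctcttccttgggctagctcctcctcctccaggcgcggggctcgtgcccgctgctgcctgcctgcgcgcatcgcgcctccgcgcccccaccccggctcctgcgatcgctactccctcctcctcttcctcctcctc
Selo: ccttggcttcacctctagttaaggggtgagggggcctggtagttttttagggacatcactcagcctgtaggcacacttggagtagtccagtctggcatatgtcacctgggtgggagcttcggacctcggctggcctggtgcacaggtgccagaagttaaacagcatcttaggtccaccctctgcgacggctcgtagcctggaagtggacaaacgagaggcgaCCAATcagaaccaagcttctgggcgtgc
The windows differ in base composition, at 70.0% GC for Gabra2 and 56.8% for Selo. The motifs searched, on both strands, were 6, in the windows of the 7 named genes with an entry. The window lay partly or wholly within the gene for Calcrl, for Ddx10 (58 bases) and for Nrde2 (all 250), for which RefSeq gives a start inside the span of the gene. The CCAAT box (CCAAT) was found in 5 of the 7, against 34.5% of 27025 promoters of the same length. The heat shock element (GAANNTTC) was found in 1 of the 7, Gabra2, against 6.78% of all. The cyclic AMP element (TGACGTCA, 1.62% of all), the sterol element (TCACNCCAC, 1.04%), the unfolded protein element (TGACGTGG, 0.503%) and the lysosomal clear element (TCACGTGA, 0.803%) were in none of the 7. A match describes the letters of the window and is no evidence of a site.

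The difference between HFD-F and CD-F ran with base composition across the transcriptome. Over the 13787 rows with a transcript in the annotation, the Spearman correlation of the log2 difference with transcript GC was -0.423, and with transcript length 0.109; genes are not independent, and no p is given. In the decile of rows with the lowest GC (31.2% to 43.2%), the median difference was 0.18, and 357 of 1379 rows were higher at an unadjusted p under 0.05 while 2 were lower. In the decile with the highest GC (58.3% to 72.8%), the median was -0.08, with 5 rows higher and 69 lower. The correlation was stronger in XY (-0.399, median difference 0.33 in the lowest decile) than in XX (-0.109, median difference 0.06); the 2 were not tested against each other. Within CD-F, the correlation with GC of a library's deviation from the mean of all libraries ranged from -0.201 in replicate 6 to 0.511 in replicate 1, with 0.445 in replicate 2, 0.374 in replicate 4 and 0.420 in replicate 8. Within HFD-F it ranged from -0.197 to 0.260. It was below 0 in every library of CD-C (-0.341 to -0.063) and of HFD-C (-0.391 to -0.115). With the trend of each library on GC removed, 737 of 13787 rows had an unadjusted p under 0.05 and 0 passed. These values belong beside each gene group below. Gabra2 (38.8% GC), Gabrg1 (35.6%), Fmr1 (39.7%) and Pik3ca (40.8%) lie in the lowest decile, and the lysosomal list has a median GC of 53.1%. Counts after GC removal are given with these groups, and differences after it only for some members, in part in a paragraph after the lists. For Gabra2, Gabrg1, Fmr1 and Pik3ca the text gives no difference after GC removal. Their nearer background is the lowest decile, with 357 of 1379 rows higher, and not the 5.1% of all rows. The part of base composition in the differences was not tested otherwise.

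**Figure D2:**
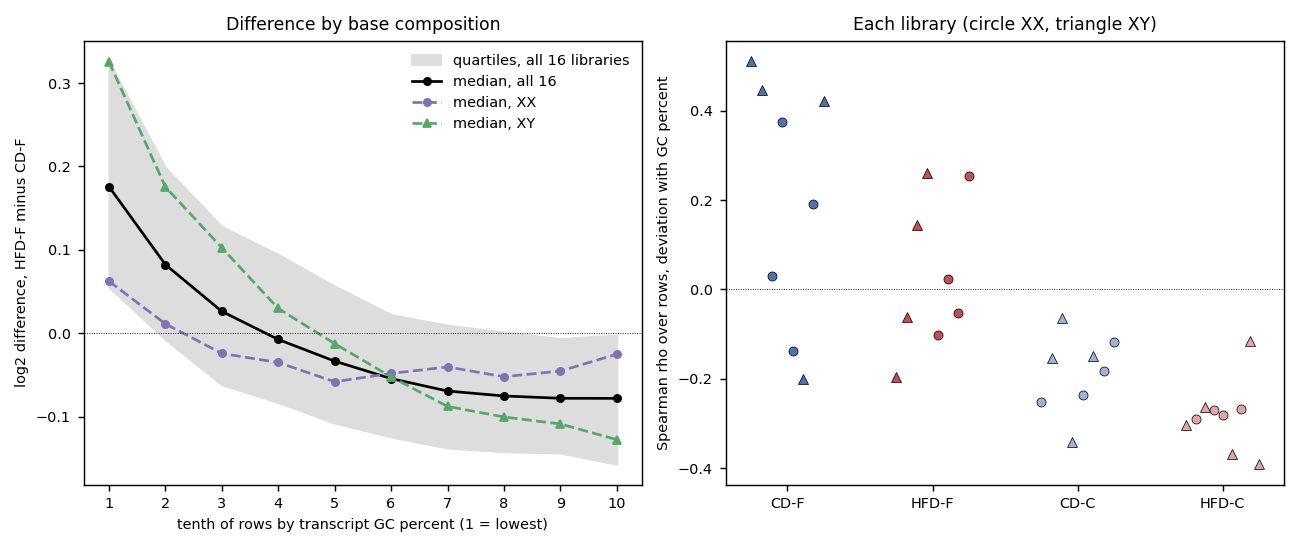
Left, median log2 difference of HFD-F minus CD-F in deciles of rows by transcript GC, with quartiles as the grey band and medians within XX and XY as broken lines. Right, the Spearman correlation over rows of each library's deviation from the mean of all libraries with GC; the median goes from 0.18 in the first decile to -0.08 in the last, and libraries of CD-F reach 0.511.

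Among the 45 lists, GABA receptor genes had the largest share of members on the higher side, although 0 passed the threshold in limma. The lists were chosen with earlier results of these data known, and no list was tested as a set. Of 15 tested of 16 listed, 14 had a difference above 0 and 4 were higher at an unadjusted p under 0.05, with 0 lower, against 5.1% and 3.16% of all rows. The list median was 0.26, against -0.02 over all rows. The list's median GC was 45.7%. In the decile of rows from 45.5% to 47.4% GC, the median difference was 0.03, with quartiles of -0.06 and 0.13. The share of all rows above 0 was not counted. Gabra2 and Gabrg1 lie in the decile of lowest GC, where 357 of 1379 rows were higher at that p. Since a bulk sample mixes cells, fewer cells of a type and less RNA per cell cannot be told apart here or in any list that follows. Besides Gabra2, the 4 members at that p included Gabrg1 and Gabrb2. Gabrg1, for a gamma subunit, stood at 6.46, 10.5 and 21.3 FPKM in CD-F and at 10.7, 17.6 and 29.3 in HFD-F (0.68, SE 0.191). Gabrb2, for a beta subunit, stood at 75.2, 196 and 401 in CD-F and at 190, 309 and 434 in HFD-F (0.50, SE 0.209). In both, 4 libraries of CD-F lay below the whole of HFD-F.

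Other alpha subunit genes had wider errors. Gabra3 had a difference of 0.76 (SE 0.413) and Gabra4 one of 0.61 (SE 0.49). The delta subunit gene Gabrd (-0.10, SE 0.184) had the only difference below 0, and the scaffold gene Gphn stood at 315 ± 23.6 and 319 ± 23.0 FPKM. The GABA-B receptor genes Gabbr1 (0.21, SE 0.319; 4 rows, uncertain) and Gabbr2 (0.02, SE 0.096) had differences within their errors. The list's count was 3 with the GC trend removed and without the 2 libraries that stood apart. It was 2 without CD-F replicate 8 and without HFD-F replicate 1, and 6 without CD-F replicate 5. In XX libraries alone the median was 0.09 with 0 at that p, and in XY alone 0.36 with 4.

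Most lysosomal genes had a small difference below 0, and 0 passed the threshold in limma. Of 28 tested, 27 had a difference below 0, with a list median of -0.14 against -0.02 over all rows. At an unadjusted p under 0.05, 10 were lower, against 3.16% of all rows. The list's median GC was 53.1%. In the decile of rows from 52.6% to 54.4% GC, the median difference was -0.07, with quartiles of -0.14 and 0.01. Most rows of that decile thus also lay below 0, and the share over all rows was not counted. Grn encodes progranulin, a secreted regulator of lysosomes. It stood at 32.2, 38.6 and 40.4 FPKM in CD-F and at 28.1, 32.2 and 35.7 in HFD-F (-0.20, SE 0.058), and all 8 libraries of HFD-F were below the mean of CD-F. Ctsa, for the protective protein cathepsin A, stood at 88.1, 103 and 123 in CD-F and at 82.6, 88.2 and 102 in HFD-F (-0.21, SE 0.065). All 8 libraries of HFD-F were below the CD-F mean of Ctsa too, and for both genes the ranges of the groups overlapped.

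Others were the protease gene Ctsb (-0.14), the glycosidase genes Gla (-0.17), Man2b1 (-0.15) and Man2b2 (-0.20), and Cln3 (-0.20) and Cln6 (-0.22), whose loss causes neuronal ceroid lipofuscinosis. Groups overlapped for each of these. Lamp2 (-0.09, SE 0.117) and Ppt1 (-0.02, SE 0.038) had intervals that held 0, as did Tfeb (-0.14, SE 0.135), which encodes a master regulator of lysosomal genes. Its relative Tfe3 alone lay above 0 (0.35, SE 0.303). The medians were -0.16 in XX and -0.14 in XY, each with 3 members at that p. The count depended on single libraries. It was 3 without CD-F replicate 7, 4 without HFD-F replicate 1, 5 without HFD-F replicate 2 or 7, 6 without CD-F replicate 1 or 2, and 13 without HFD-F replicate 4. With the GC trend removed it was 4, made up of Grn (-0.12), Ctsa (-0.13), Gla (-0.17) and Lamp2 (-0.28), also 4 with the 16 libraries fitted alone, and 7 without the 2 libraries that stood apart. In levels, Grn averaged 36.8 ± 3.26 FPKM in CD-F, 32.0 ± 2.21 in HFD-F, 31.6 ± 1.5 in CD-C and 30.5 ± 1.59 in HFD-C.

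**Figure D3:**
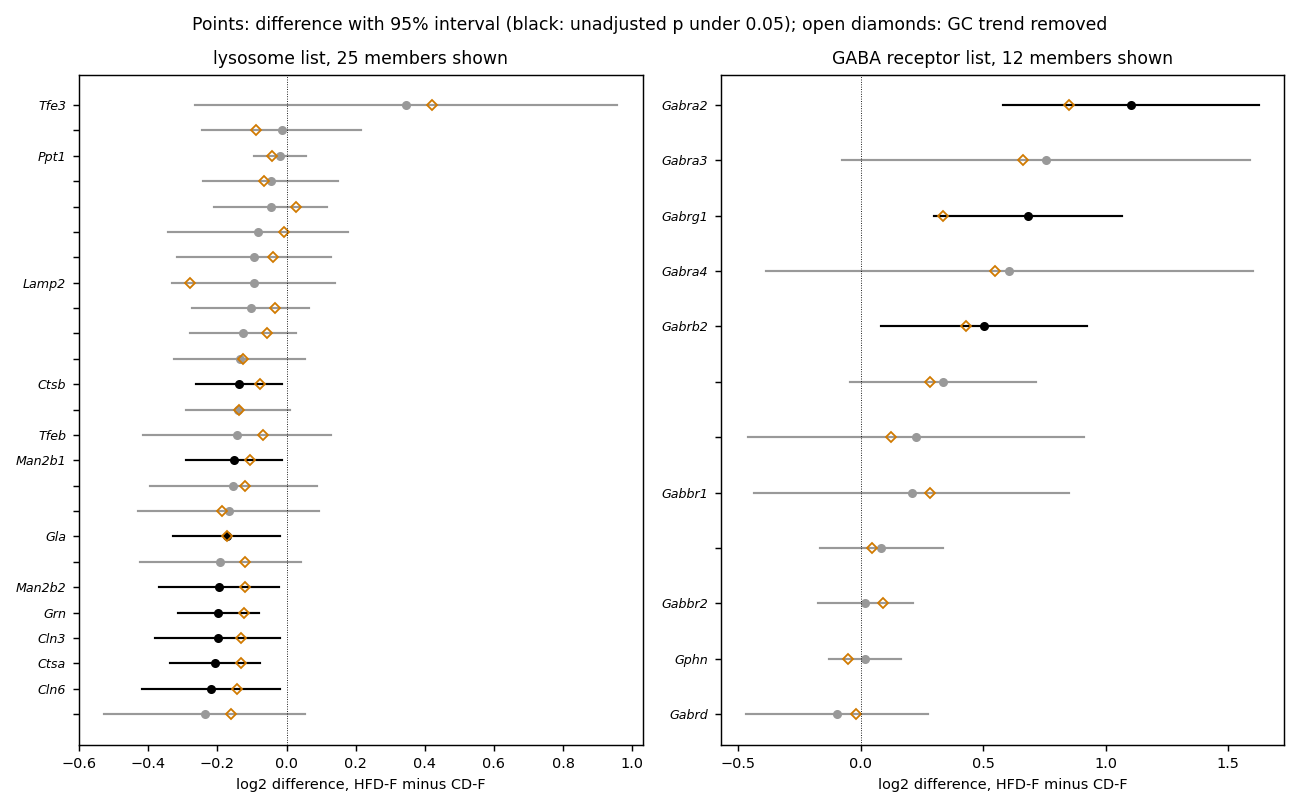
Log2 differences of HFD-F minus CD-F for 25 members of the lysosome list and 12 of the GABA receptor list, with 95% intervals (black where the unadjusted p was under 0.05) and, as open diamonds, the values after the GC trend of each library was removed; members named in the text are labelled. Of the lysosomal members shown, 24 lie below 0, and of the GABA receptor members shown, 11 lie above it.

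Genes of insulin, IGF1 and leptin signalling and the autism-associated regulators each had 4 members higher at an unadjusted p under 0.05 and 0 lower, of 22 and 20 tested, with medians of -0.002 and 0.03. Igf1, the growth factor, stood at 4.93, 7.74 and 14.4 FPKM in CD-F and at 10.2, 13 and 16.5 in HFD-F (0.59, SE 0.151), and 5 libraries of CD-F lay below the lowest of HFD-F. The difference was 0.57 after GC removal, 0.46 in XX and 0.71 in XY. The receptor-associated kinase gene Jak2 (0.39, SE 0.152) and the lipid kinase gene Pik3ca (0.28, SE 0.097) were also among them. The insulin receptor gene Insr stood at 227, 494 and 530 FPKM in CD-F and at 181, 490 and 589 in HFD-F (-0.17, SE 0.206). In XX alone the insulin list had 0 higher and 2 lower, and in XY alone 6 higher and 0 lower. Its count was 2 without CD-F replicate 8, 2 with the GC trend removed and 1 with the 16 libraries fitted alone.

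The autism-associated members at that p included the ubiquitin ligase gene Ube3a (0.62, SE 0.272) and Fmr1 (0.29, SE 0.131), which encodes an RNA-binding regulator of synaptic translation. Fmr1 had a difference of 0.00 in XX and 0.58 in XY. The count of this list was 0 without CD-F replicate 8 or HFD-F replicate 1 and 1 without CD-F replicate 1, 2 or 4 or HFD-F replicate 2 or 3, and 2 without HFD-F replicate 7. With the GC trend removed it was 1, as it was with the 16 libraries fitted alone. In CD-C and HFD-C, Fmr1 averaged 26.8 ± 2.53 and 29.0 ± 1.93 FPKM, against 18.3 ± 5.76 in CD-F and 21.9 ± 4.18 in HFD-F.

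Synaptic lists other than the GABA receptors had few members at that p. Of 14 glutamate receptor genes, 2 were higher at an unadjusted p under 0.05, the AMPA subunit genes Gria3 (0.42, SE 0.177) and Gria2 (0.40, SE 0.180), the second of which sets calcium permeability. This count was 0 without CD-F replicate 8 or HFD-F replicate 1 and with the 16 libraries fitted alone, and 1 without CD-F replicate 1, 2 or 4 or HFD-F replicate 2, 5 or 7. Gria2 stood at 122, 275 and 493 FPKM in CD-F and at 258, 409 and 512 in HFD-F. Of 19 scaffold genes only Homer1 reached that p (0.41, SE 0.156), and of 28 release genes 2 did, among them the adhesion gene Nrxn3 (0.30, SE 0.137). Dlg4, the scaffold PSD-95 of excitatory synapses (2 rows, uncertain), averaged 512 ± 69.8 FPKM in CD-F against 490 ± 76.5 in HFD-F (-0.07, interval -0.23 to 0.10). The vesicle protein gene Syp stood at 845 ± 146 and 795 ± 74.0 (-0.07, interval -0.26 to 0.12). Of 25 voltage-gated channel genes, 0 reached that p in limma.

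The activity and growth factor genes of the panel had intervals that held 0. Fos, the immediate early transcription factor, stood at 1.98, 5.07 and 7.61 FPKM in CD-F and at 2.96, 4.86 and 6.56 in HFD-F (0.06, interval -0.38 to 0.50). Arc, which regulates AMPA receptor uptake, had a difference of -0.10 (interval -0.58 to 0.39). Bdnf, the growth factor of synaptic plasticity, stood at 31.3 ± 5.95 and 35.0 ± 7.88 FPKM (0.15, interval -0.17 to 0.47). Of 23 immediate early genes, Homer1 alone reached an unadjusted p under 0.05, and of 15 neurotrophin and CREB genes Igf1 alone. Of 18 adult neurogenesis genes, Mcm2, a subunit of the replicative helicase, was lower at that p (-0.30, SE 0.119), with 6 libraries of HFD-F below the lowest of CD-F.

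Genes of oligodendrocytes and myelin had a list median of -0.34 over 13 tested, with 10 below 0, 2 at an unadjusted p under 0.05 and 0 past the threshold in limma. Opalin, a membrane protein of myelinating cells, stood at 77.2, 132 and 286 FPKM in CD-F and at 26.6, 102 and 119 in HFD-F (-0.72, SE 0.289). Mag, the myelin-associated glycoprotein, stood at 41.0, 65.8 and 79.1 in CD-F and at 19.7, 46.0 and 69.4 in HFD-F (-0.55, SE 0.262). Mbp, a main protein of compact myelin, stood at 4649 ± 1289 and 3505 ± 1221 FPKM (-0.45, interval -0.96 to 0.07). The median was -0.78 in XX and 0.03 in XY, and -0.18 without the 2 libraries that stood apart. The count was 0 without CD-F replicate 8 or HFD-F replicate 6, 1 without CD-F replicate 1, 3, 4 or 7 or HFD-F replicate 3 or 8, and 4 without CD-F replicate 6. The summed level of the list ran from 3689 to 7785 FPKM in CD-F and from 2210 to 6293 in HFD-F. Of 9 precursor genes, Lhfpl3 was higher (0.39, SE 0.130) and Olig2 lower (-0.29, SE 0.139) at that p.

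Choroid plexus genes varied more between libraries than between groups. The list median was -0.52 over 14 tested, with 0 members at an unadjusted p under 0.05 in limma, and the summed level ran from 221 to 25404 FPKM in CD-F and from 140 to 13911 in HFD-F. Ttr, the thyroxine carrier that this tissue makes in bulk, stood at 24.5, 2523 and 18780 in CD-F and at 10.1, 1014 and 10510 in HFD-F (-1.07, SE 1.61). The median was -1.92 in XX and 1.08 in XY, and -0.11 without the 2 libraries that stood apart. Of 10 liver products tested, 0 reached that p in limma. Their summed level ran from 154 to 18991 FPKM in CD-F and from 65.4 to 10687 in HFD-F, and it was made up mostly of Ttr and of the iron carrier gene Trf (137 ± 37.4 and 105 ± 39.4), which choroid plexus and oligodendrocytes also express. The other 8 averaged no more than 0.930 FPKM in CD-F and 0.852 in HFD-F. Alb, the albumin gene, was listed at 0 in all 8 libraries of HFD-F and 6 of CD-F, and at most at 0.145 FPKM. Fibroblast genes had a median of 0.24 and ependymal genes of -0.16, and neither list had a member at that p.

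Neuronal and glial marker lists gave few members past an unadjusted p of 0.05. Medians were 0.08 for pan-neuronal genes, -0.16 for dentate granule cells, -0.07 for CA1 and 0.18 for CA2 and CA3 pyramidal cells, each with 0 members at that p in limma. Of 13 interneuron genes, Dlx6os1, a noncoding RNA of the Dlx locus, was higher (0.37, SE 0.135). Of 12 astrocyte genes, the amino acid transporter gene Slc7a10 was lower (-0.23, SE 0.107). Gfap, the intermediate filament of astrocytes, averaged 86.2 ± 13.2 FPKM in CD-F against 73.6 ± 16.2 in HFD-F (-0.24, interval -0.64 to 0.15). Slco1a4, an organic anion transporter of brain vessels, was higher among 14 endothelial genes (0.42, SE 0.160), and Penk among 15 genes of striatum and thalamus (0.59, SE 0.258). The pericyte list had 0 members at that p, and the border macrophage list had 1 of 4, the mannose receptor gene Mrc1 (0.64, SE 0.293).

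Microglial and immune lists had 1 or 2 members at an unadjusted p under 0.05 each. Of 16 microglial genes, 2 were higher at an unadjusted p under 0.05. The count was 0 with the GC trend removed, in XY alone, and without CD-F replicate 7 or HFD-F replicate 8, and it was 1 without CD-F replicate 3 or HFD-F replicate 7. The 2 were the receptor genes Gpr34 (0.35, SE 0.15; 0.04 after GC removal, at 36.8% GC) and P2ry13 (1.24, SE 0.575), and the median was 0.02. P2ry13 was near 0, at 0.120 and 0.14 FPKM, in 2 XX libraries of CD-F, while the other 14 of both groups held 16.7 to 25.8. Csf1r, the receptor that microglia need to survive, averaged 1040 ± 139 FPKM in CD-F against 1008 ± 116 in HFD-F (-0.04, interval -0.24 to 0.16). Cx3cr1, the fractalkine receptor, stood at 35.2, 44.3 and 66.5 in CD-F and at 41.1, 46.5 and 602 in HFD-F, where replicate 5 alone was above 54.9 (0.49, SE 0.545). Of 16 complement genes 1 was higher, and of 22 interferon genes Psmb8 (0.75, SE 0.345; 4 rows, uncertain). Of 15 NF-kappaB and cytokine genes, Tlr4 was higher and Rela, for a subunit of that factor, lower (-0.21, SE 0.091). The cytokine genes Tnf and Il1b were listed at no more than 0.0668 FPKM in any of the 16.

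Lists of lipid metabolism, proteostasis and hormones had few members at an unadjusted p under 0.05. Of 22 cholesterol genes, Idi1, for an isomerase of the pathway, was higher at an unadjusted p under 0.05 (0.29, SE 0.118), and of 15 fatty acid synthesis genes, the elongase gene Elovl6 (0.36, SE 0.137). Elovl6 had a difference of -0.03 in XX and 0.76 in XY. Srebf1, a master regulator of lipid synthesis, stood at 37.6 ± 5.83 and 34.6 ± 3.53 (-0.11, interval -0.31 to 0.10). Of 25 cytosolic heat shock genes, the co-chaperone gene Chordc1 (0.56, SE 0.177) and Hsp90aa1 (0.43, SE 0.173) were higher, and of 20 endoplasmic reticulum genes Hsp90b1 (0.34, SE 0.140). The heat shock count was 1 without CD-F replicate 4 and with the 16 libraries fitted alone, 4 without CD-F replicate 6 or HFD-F replicate 8, and 5 without CD-F replicate 5. Chordc1 averaged 10.3 ± 4.09 FPKM in CD-F and 14.7 ± 2.66 in HFD-F, against 22.0 ± 3.08 in CD-C and 20.9 ± 4.98 in HFD-C. Hspa5, the main chaperone of the endoplasmic reticulum, had a difference of 0.19 (interval -0.17 to 0.55).

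The glucocorticoid list had a median of -0.21 over 15 tested, with 0 members at an unadjusted p under 0.05 in limma, and Nr3c1, the receptor itself, a difference of 0.11 (interval -0.14 to 0.36). Circadian clock genes (19 tested) and fatty acid oxidation genes (18) each had a median of -0.02 and 0 such members, as did 30 nuclear respiratory chain genes (-0.05) and 22 ribosomal protein genes (-0.11). The last 2 lists differed in sign by mark, with medians of 0.16 in XX and -0.29 in XY for the respiratory chain and 0.21 and -0.44 for ribosomal proteins, a difference by mark that was not tested. These medians include the 2 libraries that stood apart, CD-F replicate 8 (XY) and HFD-F replicate 8 (XX). Over both marks, the ribosomal median was 0.08 without the first and -0.24 without the second. For the respiratory chain the same medians were 0.07 and -0.15. Without HFD-F replicate 8, 6 respiratory chain genes were lower at that p. Of 15 deacetylase genes, Hdac3 and Sirt5 were lower at that p (both -0.16). The count was 0 with the GC trend removed and without CD-F replicate 8 or HFD-F replicate 1, 1 without CD-F replicate 1 or 3 or HFD-F replicate 7 and with the 16 libraries fitted alone, and 3 without CD-F replicate 5 or 6 or HFD-F replicate 8. Of 24 RNA-binding genes, the splicing factor gene Hnrnpl was lower (-0.31, SE 0.104) and Tra2a (0.64, SE 0.202) and Ncbp2 (0.13, SE 0.062) were higher. Among oxytocin, vasopressin and dopamine genes 0 of 11 reached that p, and Oxtr, the oxytocin receptor, averaged 1.41 ± 0.518 FPKM in CD-F against 1.93 ± 0.895 in HFD-F (0.31, interval -0.14 to 0.76). Short-chain fatty acid genes had 0 of 6, and the receptors Ffar2 and Ffar3 were listed at no more than 0.0328 FPKM.

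Several of the shorter counts changed with GC removal. With the GC trend removed, 0 members remained at an unadjusted p under 0.05 in the lists of precursors, border macrophages, endothelial cells, complement, cholesterol synthesis and endoplasmic reticulum chaperones, against 3.16% and 2.18% of all rows. Lhfpl3 (39.3% GC) then had a difference of 0.15, Mrc1 (39.6%) of 0.41, Slco1a4 (40.4%) of 0.21, Idi1 (40.6%) of 0.09 and Hsp90b1 (42.7%) of 0.20. Olig2 (-0.22), Slc7a10 (-0.15), Dlx6os1 (0.23), Rela (-0.13) and Mag (-0.48) were also no longer at that p. Other lists kept or gained members. The interneuron, astrocyte, pan-neuronal and neurogenesis lists then had 1 higher each, and the scaffold and cytokine lists 2 higher each. Of RNA-binding genes 3 were lower, and the oxytocin, vasopressin and dopamine list had 1 higher and 1 lower. Members still at that p included Gria2 (0.28), Gria3 (0.30), Chordc1 (0.36 at 40.8% GC), Hsp90aa1 (0.40), Elovl6 (0.37), Tlr4 (0.51) and Opalin (-0.75).

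Most of the counts of 1 or 2 changed when single libraries were left out. With the 16 libraries fitted alone, 0 members were at that p in the lists of astrocytes, border macrophages, interferon, striatum and thalamus, scaffolds, release, immediate early genes, cholesterol and fatty acid synthesis and endoplasmic reticulum chaperones, against 2.13% and 1.95% of all rows. The count of the presynaptic release list, for vesicle fusion and adhesion, was 0 without CD-F replicate 1 or 8 or HFD-F replicate 1, 2, 6 or 7, and 1 without CD-F replicate 2, 3 or 4 or HFD-F replicate 3. Slc7a10, the 1 astrocyte gene, was lost without CD-F replicate 3, 7 or 8 or HFD-F replicate 1, 2 or 5, and 2 astrocyte genes were higher without CD-F replicate 3. The precursor gene Olig2 was lost without CD-F replicate 3, 7 or 8 or HFD-F replicate 4, 5, 6 or 8, and 2 precursor genes were lower without CD-F replicate 6. The border macrophage count was 0 without CD-F replicate 1, 4, 5 or 8 or HFD-F replicate 3, 4 or 5, and 2 without CD-F replicate 7. The interferon count, made by Psmb8, was 0 without CD-F replicate 2, 3, 4, 5 or 8 or HFD-F replicate 3, 4, 5 or 6, and 2 without CD-F replicate 7.

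For the striatum and thalamus list the count was 0 without CD-F replicate 3, 6 or 7 or HFD-F replicate 3 or 6, and 2 without CD-F replicate 1. The count of higher endoplasmic reticulum genes was 0 without CD-F replicate 1 or 4, 2 without CD-F replicate 7 and 3 without HFD-F replicate 8. For cholesterol genes it was 0 without CD-F replicate 2, and 2 without CD-F replicate 5 or 6 or HFD-F replicate 8. Rela was lost without CD-F replicate 1 or 2 or HFD-F replicate 2, and the count of lower cytokine genes was 2 without CD-F replicate 5 or 6. Homer1 was lost without HFD-F replicate 1, and 2 scaffold genes were at that p without CD-F replicate 5 or 6 or HFD-F replicate 5, 7 or 8. Mcm2 was lost without HFD-F replicate 6, and 2 neurogenesis genes were lower without HFD-F replicate 1. For RNA-binding genes, 1 was higher without CD-F replicate 1, 2 or 4 or HFD-F replicate 2 or 3, and 2 were lower without CD-F replicate 3 or 8 or HFD-F replicate 8.

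The endothelial count was 2 without CD-F replicate 3 or 7 or HFD-F replicate 8, and the complement count to 2 without CD-F replicate 3. It was 2 for neurotrophin and CREB genes without CD-F replicate 8 or HFD-F replicate 4, and 2 for higher cytokine genes without HFD-F replicate 8. Without HFD-F replicate 8, 2 pan-neuronal genes and 3 circadian genes were higher. For circadian genes, 2 were higher without CD-F replicate 5, and 2 were lower without CD-F replicate 6 or HFD-F replicate 1. Without HFD-F replicate 1, 2 glucocorticoid genes were lower, and without CD-F replicate 1, 2 interferon genes were lower.

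**Figure D4:**
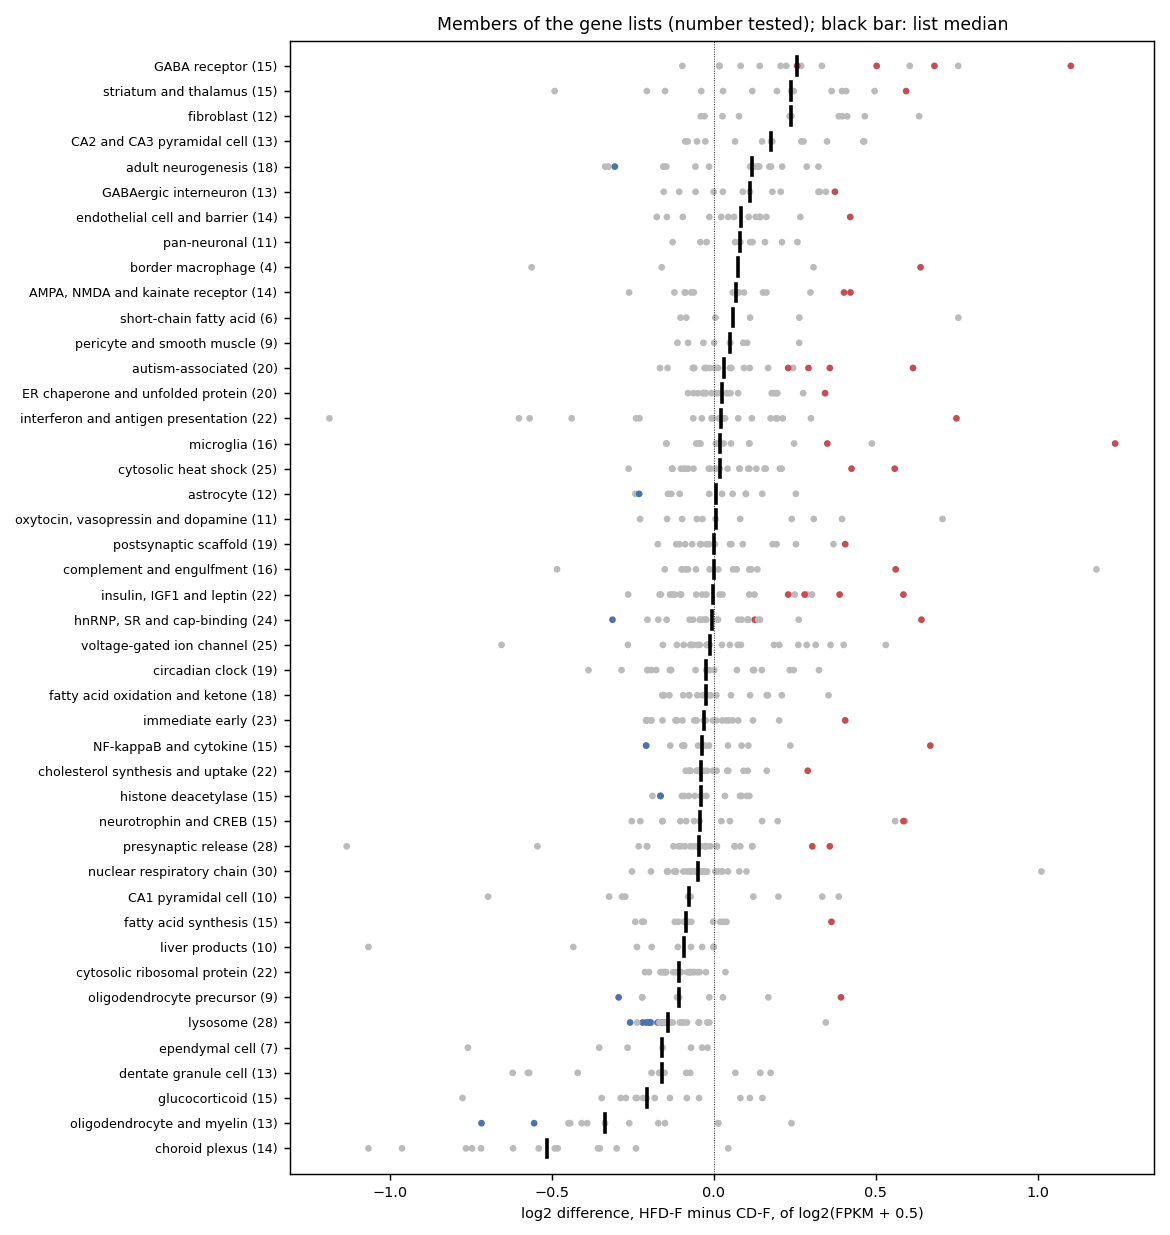
Log2 differences of HFD-F minus CD-F for members of 44 gene lists with at least 4 tested members, ordered by list median (black bar); red and blue points mark members higher or lower at an unadjusted p under 0.05. Choroid plexus (-0.52) and myelin (-0.34) have the lowest medians, GABA receptors (0.26) the highest, and the lysosomal points cluster just below 0.

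Whether the maternal difference depended on the offspring code was asked with the difference of HFD-F minus CD-F from HFD-C minus CD-C. The prefixes HFD2.2, HFD2.5 and HFD3.2 of HFD-F also occur in HFD-C, while CD-F and CD-C share none as written. In limma 0 genes passed (0%), with a smallest adjusted p of 1.0, and 441 rows had an unadjusted p under 0.05, 1.57% of rows with a positive and 1.18% with a negative value. Rad17, a loader of the DNA damage checkpoint clamp, had the smallest p. It stood at 8.73, 11.3 and 13.1 FPKM in CD-F and at 11.3, 13.1 and 15.2 in HFD-F, while CD-C averaged 16.2 ± 1.06 and HFD-C 14.2 ± 1.19 (difference of differences 0.41, SE 0.103). Wdfy1, an endosomal adaptor of innate receptors, averaged 11.4 ± 2.79 in CD-F and 19.8 ± 4.83 in HFD-F, against 18.8 ± 8.08 in CD-C and 14.9 ± 4.70 in HFD-C (1.08, SE 0.324). Of the HFD-F libraries, 7 lay above the highest CD-F value of Wdfy1. Gabra2 followed at 1.13 (SE 0.361), with Pnrc2 at 0.34 (SE 0.107).

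On the negative side, Cntn2, an adhesion molecule of axons and myelin, had the smallest p. It averaged 56.4 ± 19.5 FPKM in CD-F and 36.1 ± 17.6 in HFD-F, and 25.5 ± 14.3 in CD-C and 45.4 ± 22.5 in HFD-C (-1.54, SE 0.467). Vars (-0.69, SE 0.227; uncertain), Wrap53 (-0.32, SE 0.099), Lars, the leucine counterpart of Vars (-0.23, SE 0.074), and Btk, a kinase of immune receptors (-0.71, SE 0.232), completed the set. Lars averaged 149 ± 14.8 FPKM in CD-F against 130 ± 7.01 in HFD-F, against 138 ± 8.82 in CD-C and 142 ± 11.4 in HFD-C. None of these differences is therefore shown to be particular to offspring code F.

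The largest number of rows at an unadjusted p under 0.05 came from the test of whether the difference depended on the mark. There were 2225, 6.19% of rows with a more positive value in XX and 7.69% with a more negative one, and in limma 0 passed (0%; smallest adjusted p 0.252). Cirbp, the cold-inducible RNA-binding protein, was the gene with the smallest p on the positive side. In XX its values were 114, 143, 124 and 180 FPKM in CD-F and 179, 174, 139 and 199 in HFD-F. In XY they were 279, 244, 146 and 241 in CD-F and 127, 131, 116 and 92.7 in HFD-F. In XY the groups did not overlap, HFD-F being lower, while in XX they did (0.31 in XX and -0.93 in XY, a difference of 1.24, SE 0.276). Bex2 (0.77, SE 0.190), Xrra1 (1.11, SE 0.275) and Rae1 (0.52, SE 0.132) were arranged in the same way. For Ccdc115 (0.73, SE 0.182) neither mark overlapped. In XX its values were 10.7, 12.9, 12.3 and 11.9 FPKM in CD-F and 13.5, 14.6, 14.3 and 19.1 in HFD-F. In XY they were 15.5, 15.4, 14 and 19.9 in CD-F and 11, 13.8, 12.2 and 11.8 in HFD-F, so that HFD-F was higher in XX and lower in XY. The share of all rows that separate within a mark was not counted.

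Spred1, an inhibitor of Ras signalling, led the genes on the negative side. In XX it stood at 407, 340, 371 and 365 FPKM in CD-F and at 339, 341, 310 and 268 in HFD-F, and in XY at 278, 281, 326 and 198 in CD-F and at 470, 384, 388 and 387 in HFD-F (-0.85, SE 0.187). HFD-F was above all of CD-F in XY, and in XX 3 of its libraries were below all of CD-F. Fam46a, a poly(A) polymerase gene (RefSeq symbol Tent5a), had -1.30 (SE 0.288), Srbd1 -0.77 (SE 0.176), Mettl4 -0.89 (SE 0.203) and Rpgrip1l, for a protein of the ciliary transition zone, -0.79 (SE 0.181). Each of these 10 genes had its largest step between the XY libraries, where CD-F carries the prefixes CD1.5 and CD2.6 and HFD-F carries HFD2.2 and HFD2.5. Since mark and prefix coincide in HFD-F, a difference by mark and one by prefix cannot be told apart. All 10 were picked by their p in these same values, so that sets without overlap add no support.

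This test rested on few libraries. Without CD-F replicate 6, an XY library with prefix CD2.6, 112 genes passed, 51 with a more positive and 61 with a more negative value, and all 10 named genes were among them, with adjusted p from 0.0026 for Rpgrip1l to 0.0388 for Ccdc115 in limma. Over all settings, the adjusted p of Rpgrip1l ran from 0.0026 to 1.0. In that library Cirbp, at 146 FPKM, and Rpgrip1l, at 2.21 against 1.24, 1.15 and 0.887 in the other XY libraries of CD-F, lay on the side of the XX libraries. Without CD-F replicate 8 the rows at an unadjusted p under 0.05 numbered 959, without HFD-F replicate 8 they numbered 878, and without both 577, with 0 passing in each case.

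**Figure D5:**
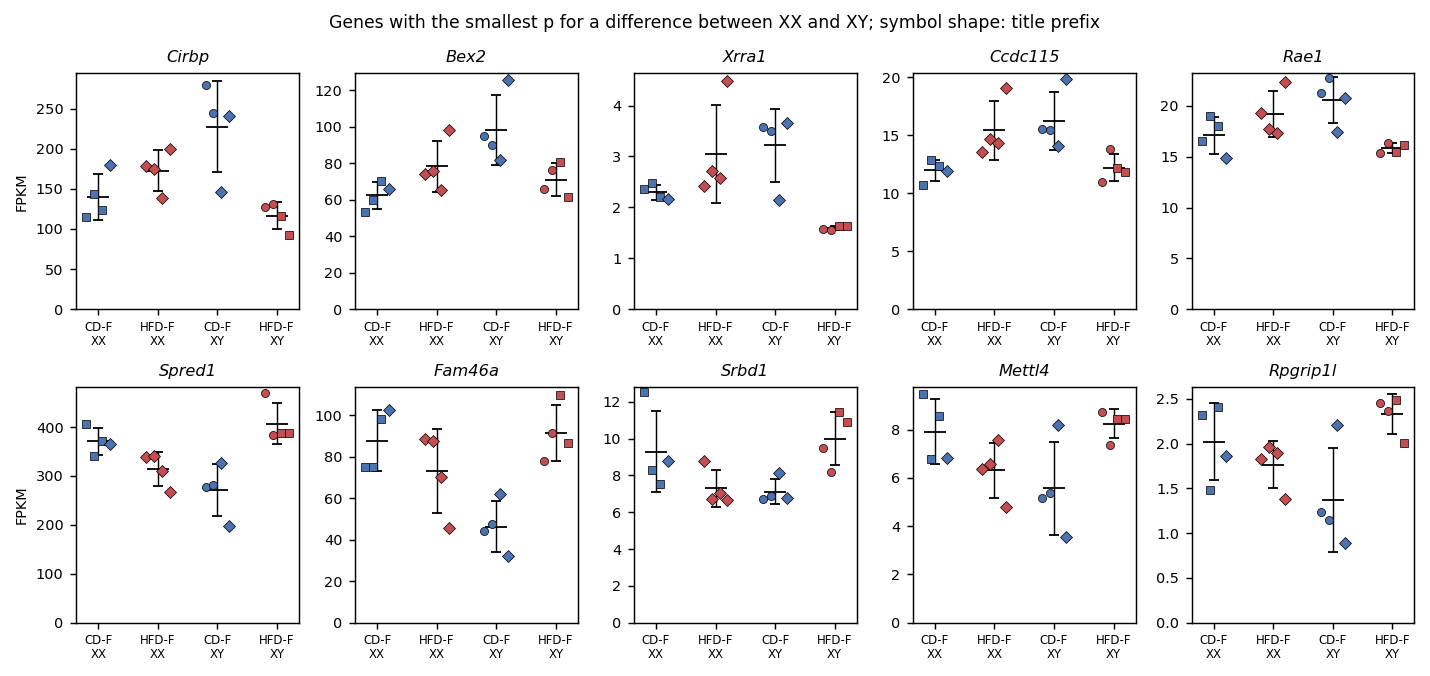
FPKM of the 10 genes with the smallest p for a difference by mark, in XX and XY libraries of CD-F (blue) and HFD-F (red), with mean ± SD over 4 libraries as bars; shapes mark title prefixes (CD-F: square CD2.5X, circle CD1.5, diamond CD2.6; HFD-F: circle HFD2.2, square HFD2.5, diamond HFD3.2). Cirbp of XY libraries lies at 146 to 279 in CD-F and at 92.7 to 131 in HFD-F.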

How the data were processed

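RNA of the hippocampus was extracted with phenol-chloroform and sequenced on a BGI-500 workflow, per the labels' protocols. The authors deposited 1 table of FPKM values, 42521 rows by 49 libraries. Reads were handled with Trimmomatic 0.38, HISAT2 and StringTie 1.3.4d on GRCm38.p6, per the submitters' processing notes. No counting or strand setting is given in the sources used here. Since the values are FPKM, depth is unknown, and transcripts that share reads may be split between rows.

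The 16029 rows whose mean reached 0.5 FPKM were taken as log2(FPKM + 0.5), so that differences of low genes are understated. limma 3.58.1 in R 4.3.3 fitted group means with a term for the XX or XY mark over all 49 libraries (lmFit, eBayes with a trend, 42 residual degrees of freedom, two-sided, Benjamini-Hochberg adjustment over all rows, threshold 0.05). For the difference by mark, a mean per group and mark was fitted. The fit was checked on simulated data with independent noise of the same spread in every group. Those data held no GC trend, no libraries that stood apart and no likeness within a prefix. The check therefore cannot speak to these features of the real libraries. Transcript GC came from GENCODE for 13787 rows (86.0%), and the GC trend of each library was a lowess curve of span 0.3.

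The members and the 45 gene lists were chosen with earlier results of these data known. Named genes were the 5 with the smallest p in each direction of each contrast, among rows with 1 symbol, a mean of at least 1 FPKM and no predicted, pseudogene or Y-linked name. A panel of 20 genes was added. List members below an unadjusted p of 0.05, and other members given for contrast, were chosen after their values were seen. Alternatives were other pseudocounts, filters, scalings and models, single marks, means per title prefix, GC removal and leaving out each library. Leaving out the 2 libraries that stood apart, and GC removal in the tests by offspring code and by mark, were chosen after seeing the data. Some genes of the lists, of the panel and among those with the smallest p are not reported here; they stay in the fits and in the counts and medians of the lists.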

Additional observations from a re-analysis of the deposited data

Results flagged for a closer look

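Of 88 pairs of a named gene and a group, 11 held a library whose gap to its nearest neighbour was large for the range of its group. For independent, normally distributed values, chance gives about 1 in 20. These pairs share libraries, so that an excess over chance cannot be read from the count. In HFD-F, Calcrl stood at 10.7 FPKM in replicate 8 against 17 in the next library, and Tlr4 at 32.9 in replicate 5 against 27.6. Vars stood at 457 FPKM in CD-F replicate 2 (next 305) and at 106 in HFD-F replicate 7 (next 182). Wrap53 stood at 1.69 in HFD-F replicate 4 (next 1.38), and Arc at 58.7 in HFD-F replicate 3 (next 115). Cx3cr1 stood at 602 FPKM in HFD-F replicate 5 against 54.9 in the next library.

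CD-F replicate 8 was the lowest library of its group for Nr3c1 (9.15 FPKM, next 15.7), Insr (227, next 410) and Wdfy1 (5.89, next 10.6). Its mean absolute deviation from its group was 0.590 on the log2 scale, and that of HFD-F replicate 8 was 0.467; both were far from the rest of their groups. Srbd1 stood at 12.5 FPKM in CD-F replicate 3 (next 8.80).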

How the results depend on the processing

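Counts of genes past the threshold in limma ran from 0 to 2 for HFD-F against CD-F when each library was left out in turn (2 without HFD-F replicate 8), stayed at 0 for the offspring code, and ran from 0 to 112 for the mark (112 without CD-F replicate 6). The other settings gave 0. Rows at an unadjusted p under 0.05 numbered 1325 for HFD-F against CD-F, 654 with the 16 libraries fitted alone, 737 with GC removed, 867 with means per prefix, and 2164 both without a filter and in XY alone. For the offspring code they numbered 441, and 1121 without a filter. For the mark they numbered 2225, and 3724 without CD-F replicate 6, 959 without CD-F replicate 8, 878 without HFD-F replicate 8 and 577 without both of the last. Of 88 differences of 85 genes (3 genes in 2 comparisons), 74 kept their sign in every setting run. In XX alone the sign turned for Dlg4 (0.070), Syp (0.10), Fos (-0.23), Hspa5 (-0.14), Nr3c1 (-0.15), Elovl6 (-0.032) and Jak2 (-0.052). In XY alone it turned for Bdnf (-0.040), Ttr (1.61) and P2ry13 (-0.12). With GC removed it turned for Bdnf (-0.057), Dlg4 (0.0085) and Csf1r (0.028), with quantile normalization for Csf1r (0.0057), with means per prefix for Ttr (0.017), and without the 2 libraries that stood apart for Ttr (0.065). Leaving out each library in turn gave -0.069 to 0.14 for Fos, -0.26 to 0.047 for Arc, -0.0015 to 0.17 for Nr3c1, -0.31 to 0.0035 for Insr and -0.12 to 0.011 for Alb. The cause was not tested. Depth is unknown, so that no limit from depth can be given. No paired analysis was possible because the numbers in the titles repeat across prefixes within a group, and HFD-F and CD-F share no prefix. With prefix as a random term the offspring code gave 418 rows at an unadjusted p under 0.05 and 0 genes past the threshold.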

Other observations

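The liver gene Alb stood at 0, 12.1 and 50.1 FPKM (lowest, median, highest) in CD-C, the control group under offspring code C, against at most 0.14 in HFD-C and 0.145 in CD-F and 0 throughout HFD-F. In the test by offspring code its difference of differences was 2.81 (SE 0.873, unadjusted p = 0.00244, adjusted p = 1.0 in limma). That value comes from the libraries of CD-C and not from HFD-F against CD-F. Among these 4 groups only CD-C brought the row to the filter of 0.5 FPKM, so that the p is no support for a difference by offspring code. It was not among the genes named for that test because its mean over the 16 libraries was under 1 FPKM.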
